A study of Homo sapiens with 6 samples.

Results

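The 10 genes described here code for proteins that move cholesterol out of cells, bind lipoproteins at the cell surface, or carry cholesterol out of lysosomes, and they were taken by name from a table of 33117 gene rows. They are the transporters ABCA1 and ABCG1, the apolipoprotein APOE, the receptors OLR1, SCARB1, LRP1 and VLDLR, the lysosomal carriers NPC1 and NPC2, and the ubiquitin ligase MYLIP, and each had a row. RNA was sequenced from WPMY-1, immortalised stromal cells of a human normal prostate grown as a cell line. The 3 shCAVIN1 libraries came from cells that carried a lentiviral hairpin against CAVIN1, a coat protein of caveolae. The 3 shCtrl libraries came from cells with the plain pLKO1 plasmid in place of the hairpin, and both kinds of cells had been transduced with lentivirus made in HEK293T cells. Puromycin selection gave stable clones, a single hairpin sequence was used, and the labels do not say whether the replicates of a group were separate clones, so the p-values reflect library-to-library spread, which may be technical. The question was how expression of these genes differed after CAVIN1 was lowered.

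Cells take up cholesterol mainly in lipoproteins bound by receptors of the LDL receptor family, release it in lysosomes, where NPC2 hands it to NPC1 for export, and pass surplus to apolipoproteins through ABCA1 and ABCG1. Oxysterols, which build up when cholesterol is plentiful, activate the nuclear receptors LXR alpha and LXR beta (NR1H3 and NR1H2), whose well-known targets include ABCA1, ABCG1, APOE, MYLIP and SREBF1. MYLIP, also called IDOL, marks VLDLR and LRP8, among others, for breakdown at the protein level, which RNA levels do not show. Caveolae, the membrane pits that CAVIN1 coats, are themselves rich in cholesterol.

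The hairpin target, shown because it defines the groups, has 21 bases and matched transcripts of 1 gene in GENCODE 29, CAVIN1, and of 0 of the 10 genes. It lies in the coding sequence, in exon 2 of 2, on the minus strand at chr17:42405221-42405241 (GRCh38).
hairpin target: gtggaggttgaggaggttatt

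CAVIN1, listed under its older symbol PTRF, stood at 134, 139 and 150 FPKM (sequenced fragments scaled to transcript length and library size) in shCAVIN1 replicates 1 to 3, against 330, 347 and 330 FPKM in shCtrl replicates 1 to 3. Its level was 42.0% of control (log2 fold change -1.25, SE 0.0586, adjusted p = 2.88e-05 by limma). The fibroblast gene VIM was abundant, at a mean of 296 FPKM in shCAVIN1 cells and 280 FPKM in shCtrl cells. COL1A2, another stromal marker, was much less alike, at 9.78 FPKM in shCAVIN1 cells and 85.5 FPKM in shCtrl cells. Of 9 tested stromal markers 4 fell and 2 rose, or 66.7%, where 55.5% of all tested genes were called in either direction. The 10 listed stromal markers summed to between 828 and 842 FPKM in shCAVIN1 libraries and between 1248 and 1365 FPKM in shCtrl libraries. The part of that shift in the values below was not tested. The libraries' FPKM sums lay between 758837 and 1043840, and read depth is unknown, so counting error has no interval here.

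Upstream sequence is shown for ABCA1, MYLIP and APOE, known LXR targets among the 10 genes that changed in opposite directions. RefSeq promoters were found for 7 of the 10 genes (10 entries, GRCh38.p14), and the 250 bases before the annotated start are printed 5′ to 3′ on the gene's strand, the first listed entry for APOE. Capitals mark every match, on either strand, to the motifs searched, which do not overlap in these windows. The motifs were the DR4 element bound by LXR with RXR (a direct repeat of AGGTCA spaced by NNNN, at most 2 mismatches in the spelled bases), the E-box (CACGTG), the CCAAT box (CCAAT) and the GC box (GGGCGG). ABCA1 is at chr9:104928156-104928405 on the minus strand, MYLIP at chr6:16128836-16129085 on the plus strand and APOE at chr19:44905546-44905795 on the plus strand.
ABCA1: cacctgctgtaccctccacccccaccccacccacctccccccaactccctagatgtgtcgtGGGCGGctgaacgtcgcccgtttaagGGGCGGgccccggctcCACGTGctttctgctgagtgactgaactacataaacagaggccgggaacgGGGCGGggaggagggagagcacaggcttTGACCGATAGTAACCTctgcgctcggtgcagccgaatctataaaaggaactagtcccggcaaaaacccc
MYLIP: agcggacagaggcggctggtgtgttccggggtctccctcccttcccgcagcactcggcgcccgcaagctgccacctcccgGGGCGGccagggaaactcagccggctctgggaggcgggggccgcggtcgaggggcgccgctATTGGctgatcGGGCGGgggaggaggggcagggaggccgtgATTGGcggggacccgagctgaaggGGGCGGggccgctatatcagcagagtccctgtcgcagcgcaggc
APOE: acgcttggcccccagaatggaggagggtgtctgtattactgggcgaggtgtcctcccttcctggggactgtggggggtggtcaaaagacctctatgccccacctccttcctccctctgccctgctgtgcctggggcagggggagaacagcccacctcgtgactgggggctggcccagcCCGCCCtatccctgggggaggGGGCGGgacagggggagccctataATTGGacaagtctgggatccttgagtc

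The long capital run in ABCA1, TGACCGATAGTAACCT, is a DR4 match with 2 mismatches on the opposite strand, and it spans positions -69 to -54 before the annotated start. A DR4 match at this tolerance was present in 2.03% of 35116 promoter entries, and ABCA1 was the only entry among the 10 of these genes to hold it. The E-box of ABCA1 was found in 6.34% of all promoters, the CCAAT boxes of MYLIP and APOE in 32.0%, and the GC boxes of all 3 genes in 42.6%. A match is a description of letters, and the windows say nothing of sites farther away.

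Of the 10 genes, 4 rose in shCAVIN1 cells (OLR1, NPC2, APOE and MYLIP), 3 fell (ABCA1, SCARB1 and VLDLR), 2 did not pass the test (NPC1 and LRP1), and ABCG1 was below the filter of a mean of 0.5 FPKM. The threshold was an adjusted p under 0.05 in limma on log2(FPKM + 0.5), a scale that understates changes of low genes. Over all 13941 tested genes, 27.3% were called higher, 28.2% lower and 55.5% in either direction, so 7 calls among 9 tested genes, taken by themselves, are not a result about these genes. On this scale OLR1 was the only one of the 9 past a log2 fold change of 1 in size, where 2.65% of tested genes were called higher and 2.89% lower by that much. ABCA1 was at -0.95 on it, at -1.24 with 0.1 added in place of 0.5, and at 39.4% of control by its mean FPKM. The median absolute log2 fold change was 0.43 over the 9 genes and 0.27 over all tested genes. For 8 of the 9 genes every shCAVIN1 library lay on one side of every shCtrl library, as in 64.6% of tested genes.

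**Figure D1:**
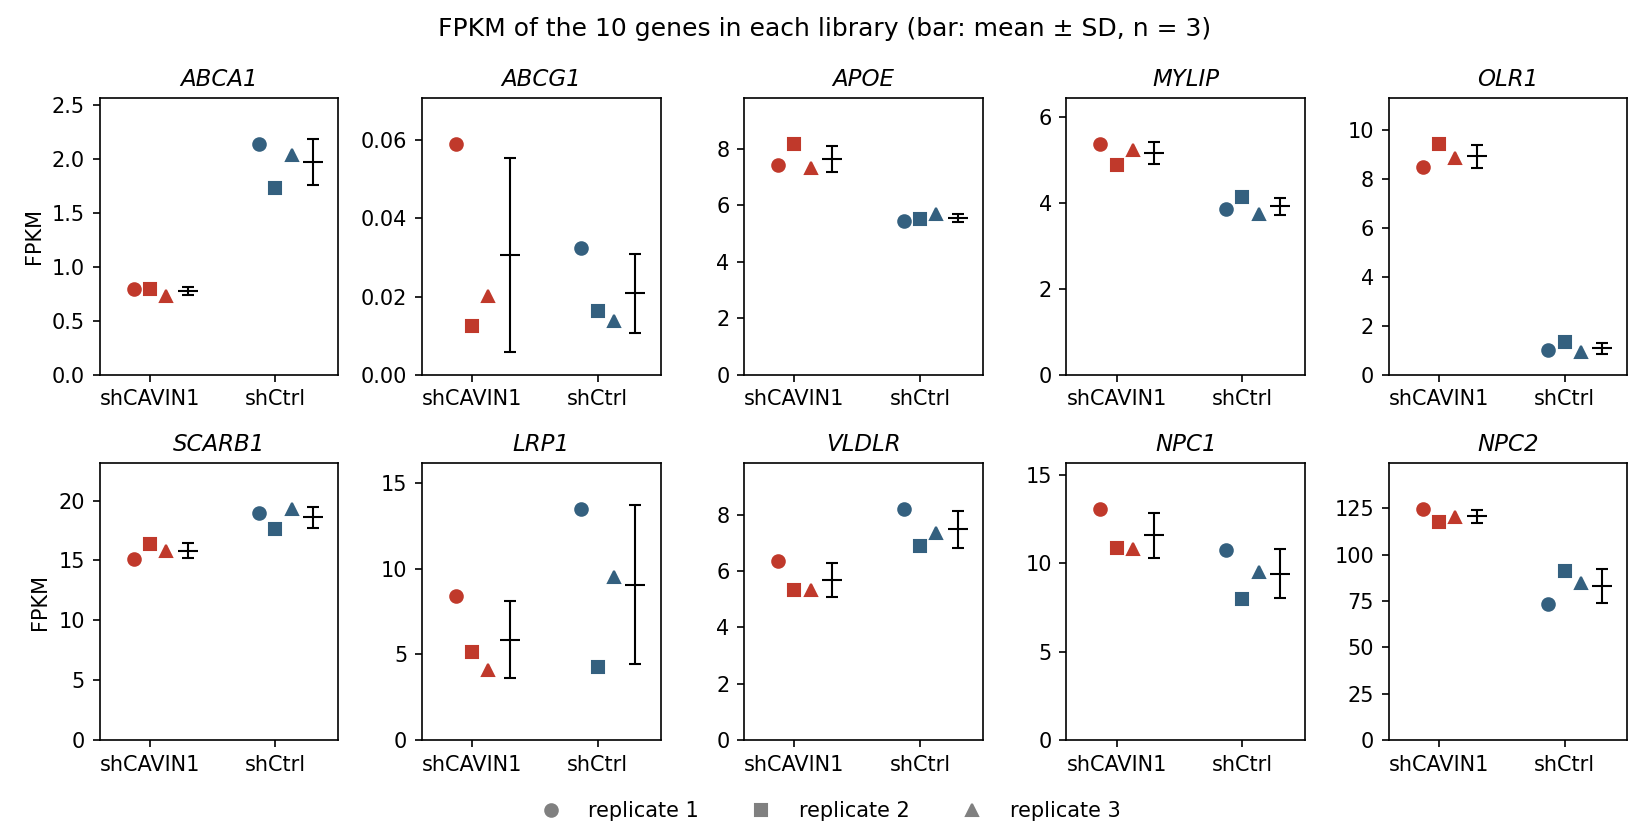
FPKM (vertical axes, each from 0) of the 10 genes in each library, with shCAVIN1 libraries in red left of shCtrl libraries in blue, symbols for replicates and a black bar for the mean ± SD (n = 3). OLR1 sits between 8.46 and 9.41 FPKM in shCAVIN1 libraries and at or below 1.31 FPKM in shCtrl libraries, ABCA1 is below 0.8 FPKM in each shCAVIN1 library, and the LRP1 libraries of the groups overlap.

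ABCA1, the transporter that loads cholesterol and phospholipid onto lipid-poor apolipoprotein A-I, fell. It stood at 0.799, 0.796 and 0.733 FPKM in shCAVIN1 replicates 1 to 3, against 2.14, 1.73 and 2.04 FPKM in shCtrl replicates 1 to 3. The groups did not overlap, and the lowest shCtrl library was above each shCAVIN1 library. The means were 0.776 ± 0.0373 FPKM in shCAVIN1 cells and 1.97 ± 0.215 FPKM in shCtrl cells (SD, n = 3 each), 39.4% of control, with a log2 fold change of -0.95 (SE 0.0895, adjusted p = 0.000309). Only 7.88% of tested genes had an absolute log2 fold change as large or larger. Its longest annotated transcript has 10494 bases, and the fold change was -0.81 with the median of each transcript-length class subtracted from each library, an alternative added after the data were seen.

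ABCG1, which passes cholesterol to HDL particles, was close to absent. It stood at 0.0590, 0.0126 and 0.0203 FPKM in shCAVIN1 replicates 1 to 3, against 0.0325, 0.0162 and 0.0138 FPKM in shCtrl replicates 1 to 3. The groups overlapped, and at these levels a difference was not detectable. With no filter on low values its log2 fold change was 0.03 (adjusted p = 0.648).

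APOE, the apolipoprotein that accepts effluxed lipid and is a ligand of the LDL receptor family, rose. It stood at 7.42, 8.17 and 7.31 FPKM in shCAVIN1 replicates 1 to 3, against 5.46, 5.50 and 5.70 FPKM in shCtrl replicates 1 to 3. The groups did not overlap, although the shift was small, 1.38-fold by the means of 7.63 ± 0.467 FPKM in shCAVIN1 cells and 5.55 ± 0.129 FPKM in shCtrl cells. The log2 fold change was 0.43 (SE 0.0557, adjusted p = 0.00114). APOC1, the neighbouring apolipoprotein gene 4854 bases away, fell: it stood at 0.470, 0.788 and 0.158 FPKM in shCAVIN1 replicates 1 to 3, against 1.95, 1.60 and 2.05 FPKM in shCtrl replicates 1 to 3 (log2 -1.33, SE 0.246, adjusted p = 0.00462). The shCAVIN1 mean of APOC1 was 0.472 FPKM, so it passed the filter only through its shCtrl level.

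MYLIP rose with little spread. It stood at 5.37, 4.89 and 5.24 FPKM in shCAVIN1 replicates 1 to 3, against 3.86, 4.15 and 3.75 FPKM in shCtrl replicates 1 to 3, without overlap. The means of 5.17 ± 0.251 FPKM in shCAVIN1 cells and 3.92 ± 0.204 FPKM in shCtrl cells gave a 1.32-fold difference and a log2 fold change of 0.36 (SE 0.0599, adjusted p = 0.00312). After rescaling the libraries to TPM it missed the threshold (log2 0.47, adjusted p = 0.0537). Among receptors that MYLIP marks for breakdown, LRP8 rose and VLDLR fell in RNA. LRP8, the apolipoprotein E receptor 2, averaged 7.13 ± 0.214 FPKM in shCAVIN1 cells and 4.65 ± 0.222 FPKM in shCtrl cells (log2 0.57, adjusted p = 0.000278).

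OLR1, the lectin-like scavenger receptor LOX-1 that binds oxidised LDL, showed the widest difference of the 10 genes. It stood at 8.46, 9.41 and 8.84 FPKM in shCAVIN1 replicates 1 to 3, against 0.999, 1.31 and 0.905 FPKM in shCtrl replicates 1 to 3. Every shCAVIN1 library was far above the highest shCtrl library. The ratio of means was 8.30 and the log2 fold change 2.59 (SE 0.106, adjusted p = 1.92e-05), larger in size than in 98.8% of tested genes. OLR1 was the ninth most abundant of the 10 genes in shCtrl cells and the fourth in shCAVIN1 cells.

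LOX-1 is best known from endothelial cells and macrophages, so their markers are given beside it. The 7 endothelial markers summed to between 1.43 and 1.61 FPKM in shCAVIN1 libraries and between 0.663 and 1.15 FPKM in shCtrl libraries. Of these only the receptor TEK passed the filter, and it rose, to 0.941 ± 0.0177 FPKM in shCAVIN1 cells, against 0.227 ± 0.0623 FPKM in shCtrl cells (log2 0.99, adjusted p = 0.000458). Its shCtrl mean alone was below the filter, so TEK was tested only because of its shCAVIN1 level, and its selection and its rise are linked. Below the filter, libraries did not overlap for CDH5 (mean 0.107 FPKM in shCAVIN1 cells, 0.0415 FPKM in shCtrl cells), KDR (0.0471 FPKM in shCAVIN1 cells, 0.00119 FPKM in shCtrl cells), VWF (0.0397 FPKM in shCAVIN1 cells, 0.0182 FPKM in shCtrl cells) and, the other way, CLDN5 (0.0966 FPKM in shCAVIN1 cells, 0.307 FPKM in shCtrl cells). PECAM1 and TIE1 overlapped, and PECAM1 was below 0.07 FPKM in every library. The 8 macrophage markers summed to between 0.991 and 1.36 FPKM in shCAVIN1 libraries and between 1.29 and 1.62 FPKM in shCtrl libraries. Most of that sum in shCtrl cells was CD14, which fell to 0.508 FPKM in shCAVIN1 cells, against 1.22 FPKM in shCtrl cells (log2 -0.77, adjusted p = 0.00261). Below the filter and without overlap, EMR1 averaged 0.410 FPKM in shCAVIN1 cells and 0.0845 FPKM in shCtrl cells, and PTPRC averaged 0.135 FPKM in shCAVIN1 cells and 0.0409 FPKM in shCtrl cells. AIF1 was listed at 0 in all shCAVIN1 libraries and averaged 0.0444 FPKM in shCtrl cells, CSF1R and ITGAM overlapped, and CD163 and TYROBP were listed at 0 in all 6 libraries. The part of these cell types in the level of OLR1 was not tested. In bulk RNA a change in the number of cells of a kind and a change of RNA per cell cannot be told apart.

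SCARB1, the HDL receptor SR-BI, which exchanges cholesterol in both directions, fell slightly. It stood at 15.1, 16.4 and 15.8 FPKM in shCAVIN1 replicates 1 to 3, against 19.0, 17.6 and 19.3 FPKM in shCtrl replicates 1 to 3. The groups did not overlap, but the gap between the nearest libraries was small. The log2 fold change was -0.23 (SE 0.0526, adjusted p = 0.0110), or 84.9% of control, and 57.3% of tested genes changed by as much or more in size. After rescaling to TPM the call was lost (log2 -0.11, adjusted p = 0.621).

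VLDLR, a receptor for triglyceride-rich lipoproteins, fell. It stood at 6.38, 5.34 and 5.32 FPKM in shCAVIN1 replicates 1 to 3, against 8.19, 6.90 and 7.37 FPKM in shCtrl replicates 1 to 3, without overlap. The log2 fold change was -0.37 (SE 0.0920, adjusted p = 0.0148), 75.8% of control. With the length-class medians subtracted it was -0.25 (adjusted p = 0.0153). The call was lost after rescaling to TPM (log2 -0.26, adjusted p = 0.228) and without shCAVIN1 replicate 2 (adjusted p = 0.0571) or 3 (adjusted p = 0.0577). The antisense gene VLDLR-AS1 overlaps VLDLR, and the strand setting of the counting is not stated. VLDLR-AS1 stood at 0.887, 1.17 and 0.705 FPKM in shCAVIN1 replicates 1 to 3, against 1.54, 1.45 and 0.963 FPKM in shCtrl replicates 1 to 3.

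LRP1, a very large endocytic receptor for APOE-bearing remnants and many other ligands, varied more within the groups than between them. It stood at 8.38, 5.13 and 4.08 FPKM in shCAVIN1 replicates 1 to 3, against 13.5, 4.24 and 9.51 FPKM in shCtrl replicates 1 to 3. Replicate 1 was the highest library of both groups, and shCtrl replicate 2 lay below 2 of the 3 shCAVIN1 libraries. The log2 fold change of -0.51 had an SE of 0.436 (adjusted p = 0.351), and 97.6% of tested genes had a smaller spread within groups. It was -0.17 without shCtrl replicate 1 and -0.95 without shCtrl replicate 2 (adjusted p = 0.0541).

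The libraries differed by transcript length, and LRP1 has the longest transcript of the 10 genes, 14897 bases. Among 504 tested protein-coding genes with a transcript over 10 kb, the median deviation from the group mean was 0.11 (log2) in shCtrl replicate 1 and -0.13 in shCtrl replicate 2, against -0.08 and 0.12 in the class up to 1 kb. The shCAVIN1 libraries differed less, with medians over 10 kb of 0.05, -0.02 and -0.04 in replicates 1 to 3. LRP1 moved the same way but much farther: shCtrl replicate 1 exceeded replicate 2 by 1.56 (log2) in LRP1 and by a median of 0.24 over the class. No other gene of the class was higher in shCtrl replicate 1 than in replicate 2 by as much, and differences the other way were not counted. VLDLR, NPC1 and, narrowly in shCAVIN1 cells, ABCA1 were also highest in replicate 1 of both groups. NPC1 is in the class of 4 to 6 kb, whose median deviation in replicate 1 was 0.002 in shCAVIN1 and -0.006 in shCtrl cells. NPC1 itself deviated there by 0.17 and 0.19. Between the groups, the median log2 fold change was -0.14 over 10 kb and 0.08 up to 1 kb. The part of transcript length in the LRP1 values was not tested beyond subtracting the class medians, which gave a log2 fold change of -0.37 (adjusted p = 0.408).

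**Figure D2:**
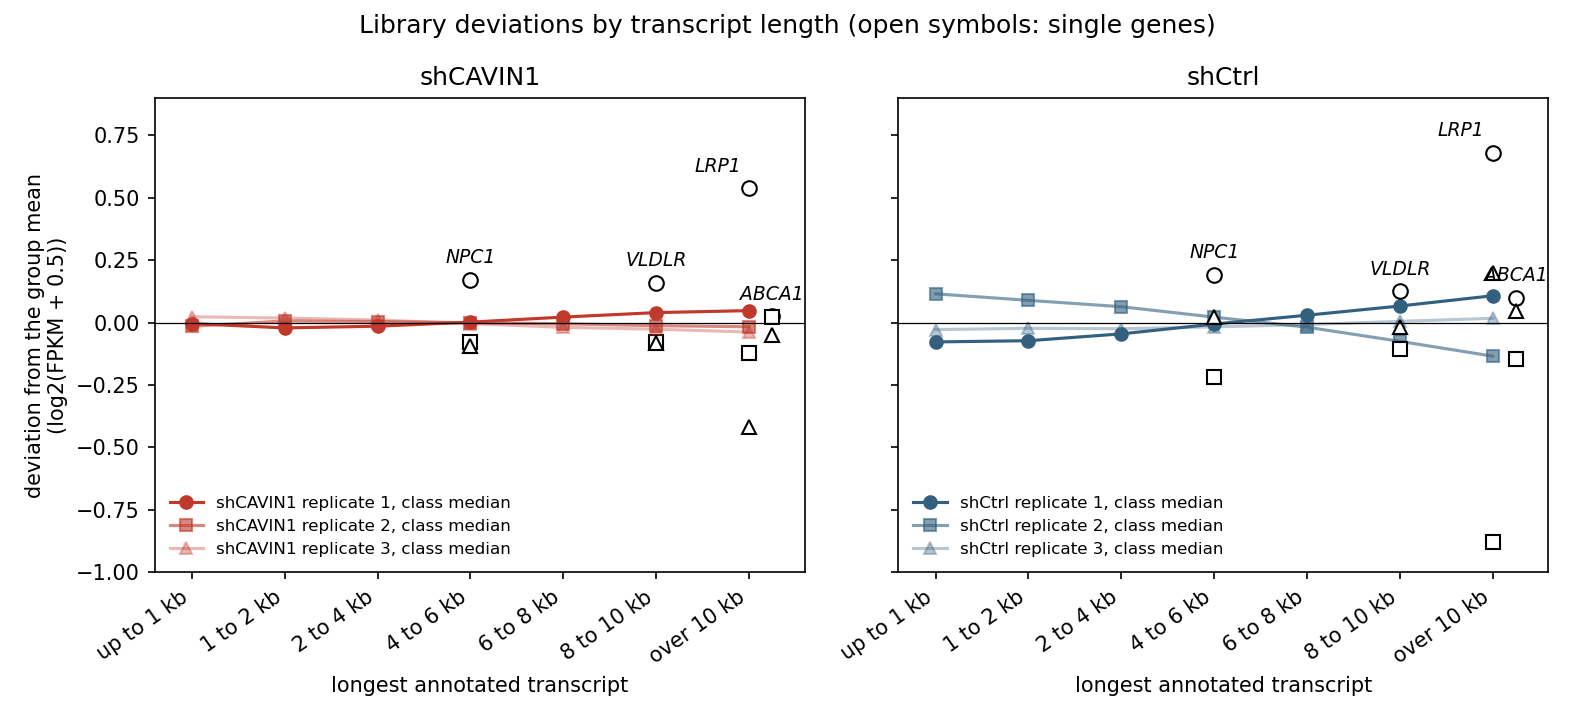
Deviation of each library from its group mean on the log2(FPKM + 0.5) scale (vertical axis) for classes of longest annotated transcript (horizontal axis), with shCAVIN1 left and shCtrl right. Lines are class medians over tested protein-coding genes and open symbols single genes, with the same symbol for the same replicate. LRP1 in shCtrl replicate 2 lies 0.88 below its group mean, where the class median is 0.13 below it.

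In lysosomes, NPC2 binds cholesterol in the lumen and NPC1 takes it through the membrane. NPC2 was the most abundant of the 10 genes and rose: it stood at 125, 118 and 121 FPKM in shCAVIN1 replicates 1 to 3, against 73.5, 91.3 and 84.6 FPKM in shCtrl replicates 1 to 3. The groups did not overlap, and the mean was 1.45-fold higher (log2 0.54, SE 0.0831, adjusted p = 0.00215). NPC1 stood at 13.1, 10.9 and 10.8 FPKM in shCAVIN1 replicates 1 to 3, against 10.8, 7.98 and 9.51 FPKM in shCtrl replicates 1 to 3. The groups did not overlap, but the lowest shCAVIN1 and the highest shCtrl library were nearly equal. NPC1 did not pass the test, with a log2 fold change of 0.29 (SE 0.123, adjusted p = 0.0890). It passed without shCtrl replicate 1 (log2 0.39, adjusted p = 0.0426). The ratio of NPC2 to NPC1 was 9.53, 10.8 and 11.2 in shCAVIN1 replicates 1 to 3, against 6.83, 11.4 and 8.89 in shCtrl replicates 1 to 3, with overlap.

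By FPKM, which is per length, the order of the means in shCAVIN1 cells was NPC2, SCARB1, NPC1, OLR1, APOE, LRP1, VLDLR, MYLIP, ABCA1 and ABCG1, and libraries overlapped between APOE and LRP1, LRP1 and VLDLR, and VLDLR and MYLIP. In shCtrl cells the order was NPC2, SCARB1, NPC1, LRP1, VLDLR, APOE, MYLIP, ABCA1, OLR1 and ABCG1, with overlap between NPC1 and LRP1 and between LRP1 and VLDLR. The 10 genes summed to 190, 179 and 179 FPKM in shCAVIN1 replicates 1 to 3, against 137, 141 and 143 FPKM in shCtrl replicates 1 to 3. NPC2 made up between 65.7% and 67.5% of that sum in shCAVIN1 libraries and between 53.5% and 64.9% in shCtrl libraries. OLR1 took between 4.46% and 5.27% in shCAVIN1 libraries and between 0.635% and 0.934% in shCtrl libraries.

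The neighbours of each gene on its chromosome were set beside it, where 27.3% of all tested genes were called higher and 28.2% lower. OLR1 (chromosome 12, 10158301 to 10172138) had 14 other tested protein-coding genes within 1 Mb, with a median log2 fold change of -0.54, of which 1 rose (the autophagy gene GABARAPL1, 0.65) and 2 fell. TMEM52B, which overlaps OLR1 on the opposite strand, was below the filter but higher in each shCAVIN1 library than in each shCtrl library. It stood at 0.232, 0.325 and 0.123 FPKM in shCAVIN1 replicates 1 to 3, against 0.0265, 0.0601 and 0.0295 FPKM in shCtrl replicates 1 to 3. Whether reads of 1 of these overlapping genes were counted for the other was not tested. STAT6, which overlaps LRP1 on the opposite strand, ranged from 12.0 to 12.9 FPKM in shCAVIN1 libraries and from 12.1 to 12.7 FPKM in shCtrl libraries, without the spread of LRP1. ABCA1 (chromosome 9, 104781002 to 104928237) had 6 such neighbours with a median of 0.02, between -0.34 and 0.16, and 1 of them fell. OLR1 and ABCA1 thus lay outside the range of their tested neighbours. VLDLR (chromosome 9, 2621834 to 2660053) had 3 tested neighbours, all of which fell, with a median of -0.27. NPC2 (chromosome 14, 74476192 to 74494177) had 32 with a median of 0.22, of which 12 rose and 3 fell, and NPC1 (chromosome 18, 23506184 to 23586898) had 10 with a median of 0.21, of which 4 rose. The 53 neighbours of APOE (chromosome 19, 44905754 to 44909393) and the 52 of LRP1 (chromosome 12, 57128493 to 57213351) had medians of -0.04 and -0.12. MYLIP (chromosome 6, 16129125 to 16148248) had 4 neighbours, between -0.94 and 0.55, and SCARB1 (chromosome 12, 124776856 to 124882668) had 7, between -0.16 and 0.65.

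**Figure D3:**
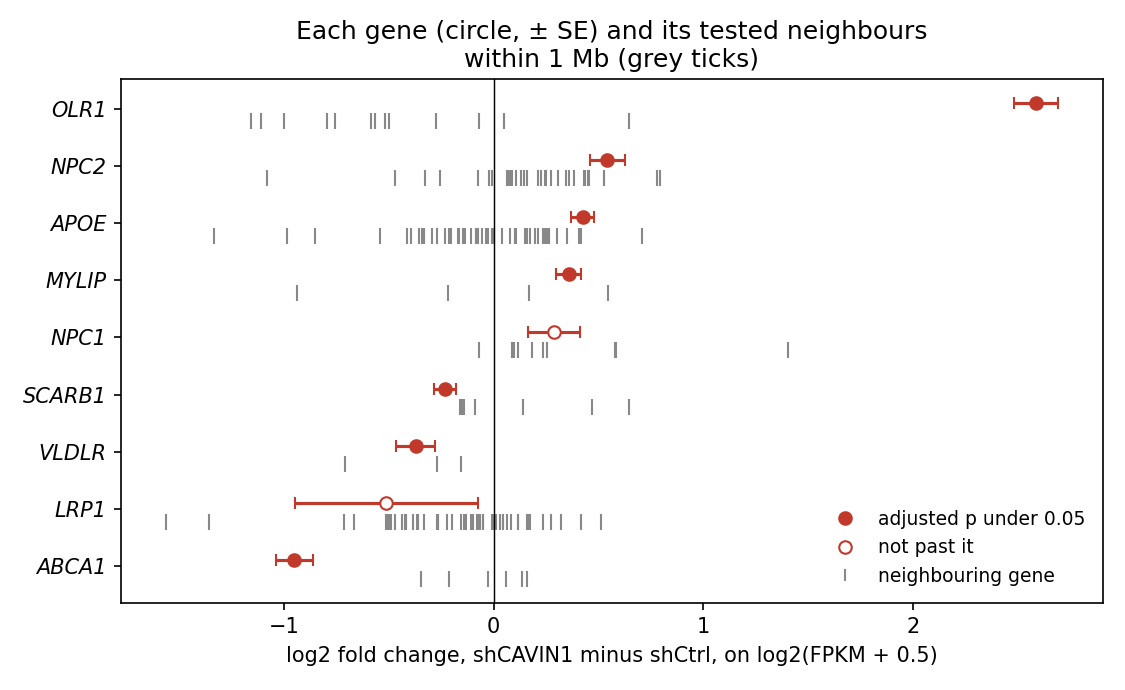
Log2 fold change of shCAVIN1 minus shCtrl on log2(FPKM + 0.5) (horizontal axis) for the 9 tested genes, ordered by value, with the SE as a bar, and for each tested protein-coding gene within 1 Mb as a grey tick. OLR1 at 2.59 and ABCA1 at -0.95 lie outside the ticks of their neighbours, and VLDLR at -0.37 lies among its 3 neighbours.

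Other genes of LXR signalling and sterol efflux moved both ways. Of 21 listed genes 15 were tested, 4 rose, 5 fell and 6 did not pass, with a median log2 fold change of 0.01 against -0.02 over all tested genes. The share called in either direction was 60%, near the 55.5% over all tested genes. The receptors themselves did not pass the test: NR1H3 averaged 3.79 ± 0.363 FPKM in shCAVIN1 cells and 3.40 ± 0.213 FPKM in shCtrl cells, and NR1H2 averaged 39.1 ± 1.74 FPKM in shCAVIN1 cells and 36.0 ± 0.398 FPKM in shCtrl cells. Their partner RXRA rose (log2 0.56, SE 0.0495, adjusted p = 0.000241). Among known LXR targets, SREBF1, a transcription factor of lipid synthesis, rose 1.98-fold (log2 0.96, SE 0.0671). PLTP, the phospholipid transfer protein, fell to 8.42 ± 0.845 FPKM in shCAVIN1 cells, against 20.5 ± 0.556 FPKM in shCtrl cells (log2 -1.24). So ABCA1, PLTP and APOC1 were lower while APOE, MYLIP and SREBF1 were higher in the same cells. Under TPM 4 of the listed genes rose and 3 fell.

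In the LDL receptor family and its partners, 18 of 22 listed genes were tested, 8 rose and 4 fell, with a median of 0.11. That is 66.7% called, against 55.5% of all tested genes. LRP3 rose to 14.3 ± 1.13 FPKM in shCAVIN1 cells, against 6.40 ± 0.330 FPKM in shCtrl cells (log2 1.10, SE 0.0706, adjusted p = 8.27e-05). SORL1, a sorting receptor, rose to 1.13 ± 0.127 FPKM in shCAVIN1 cells, against 0.316 ± 0.0802 FPKM in shCtrl cells, and it passed the filter only through its shCAVIN1 level. DAB2, a clathrin adaptor for receptors of the family, fell to 62.2% of control (log2 -0.66). Under TPM 6 rose and 2 fell.

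Among scavenger receptors and lipoprotein-processing genes, 12 of 19 listed genes were below the filter, CD36, MSR1 and LPL among them, all 3 below 0.1 FPKM on average in both groups. Of the 7 that were tested, 6 rose, where 27.3% of all tested genes were called higher, and PDZK1, the scaffold of SCARB1, did not pass (log2 0.09). Under TPM 4 of them rose. SCARA3 rose to 32.4 ± 0.507 FPKM in shCAVIN1 cells, against 15.0 ± 0.572 FPKM in shCtrl cells (log2 1.09, SE 0.0424, adjusted p = 1.70e-05). CXCL16, a scavenger receptor and chemokine, rose 1.78-fold, the lysosomal glycoprotein CD68 rose 1.44-fold, and the lysosomal receptor SCARB2 rose 1.28-fold, a call lost under TPM (log2 0.47, adjusted p = 0.0804).

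Of 23 genes that handle cholesterol inside cells, 22 were tested, 6 rose and 10 fell, with a median of -0.10. That is 72.7% called, against 55.5% of all tested genes. OSBPL1A, an oxysterol-binding protein of late endosomes that lies near NPC1, rose to 8.78 ± 0.238 FPKM in shCAVIN1 cells, against 3.01 ± 0.141 FPKM in shCtrl cells (log2 1.40, SE 0.0512, adjusted p = 1.32e-05). NCEH1, which hydrolyses cholesterol esters, rose 1.94-fold (log2 0.94) and the lysosomal membrane protein LAMP1 rose 1.71-fold (log2 0.77). LAMP2, a related lysosomal membrane protein, went the other way, to 74.4% of control (log2 -0.42). STARD5, a sterol carrier, fell to 33.9% of control (log2 -1.38) and OSBPL2 to 57.0% (log2 -0.77). Under TPM 4 rose and 3 fell.

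All 12 genes of the sterol synthesis and sensing list were tested: 3 rose and 8 fell, with a median of -0.34. That is 91.7% called, against 55.5% of all tested genes. The synthesis enzymes HMGCS1 and SQLE fell, to 48.9% and 57.8% of control. Under TPM 2 rose and 4 fell.

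**Figure D4:**
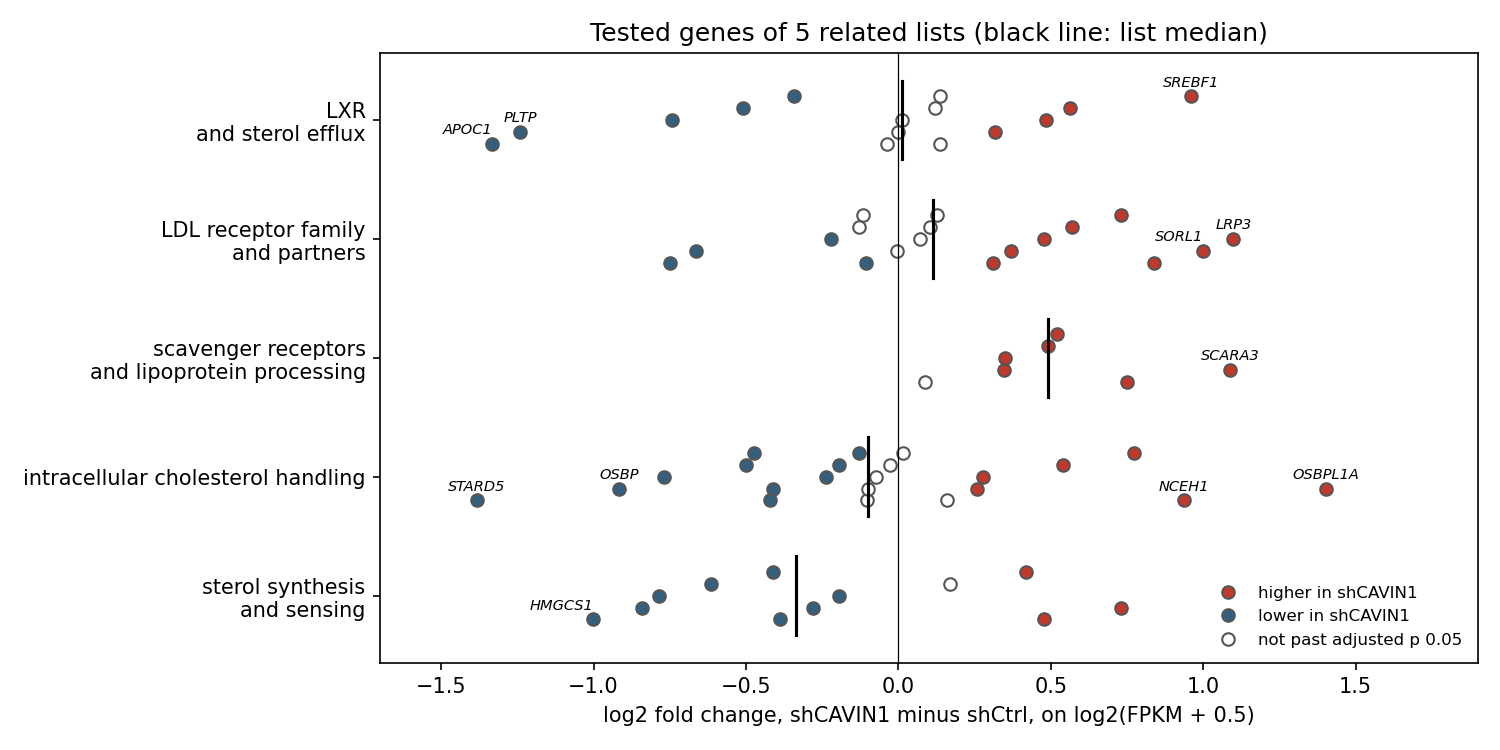
Log2 fold change of shCAVIN1 minus shCtrl on log2(FPKM + 0.5) (horizontal axis) for the tested genes of 5 related lists, coloured red where called higher, blue where called lower and white where not past an adjusted p of 0.05, with a black line at the list median. Medians run from 0.49 (scavenger receptors, 7 genes) to -0.34 (sterol synthesis and sensing, 12 genes), and each of the other lists holds calls on both sides.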

How the data were processed

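The authors' deposited file holds FPKM per gene, 1 column for each of 6 libraries. Per the labels' protocols, total RNA was extracted with TRIzol and sequenced from an Illumina stranded kit. Per the submitters' processing notes, reads were handled with bcl2fastq 2.17.1.14 and CASAVA and with TopHat and TopHat2 (given as 2.2.5), on GRCh38. No source used here names the quantifier, the annotation or the strand setting. FPKM sums include a few very abundant RNAs, the 10 largest rows holding between 21.1% and 42.5% of a library, so rescaling to TPM moves all other genes.

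All genes with a mean of at least 0.5 FPKM were fitted by limma 3.58.1 (R 4.3.3) on the log2(FPKM + 0.5) scale (group as the only term, trended variances, Benjamini-Hochberg adjustment over 13941 genes), after the procedure was tested on simulated data. The genes and lists were chosen with earlier results of these data known, and no test was run on lists. All 10 genes are given in full. Of each list, up to 4 called genes with the lowest adjusted p and further called genes with an absolute log2 fold change of at least 1 are eligible to be named; other genes named were chosen after their values were seen, and some eligible genes are not reported here. Alternatives changed the pseudocount, the filter, the scaling, the variance model and the block, or left out a library; 1 of them, subtracting length-class medians, was chosen after seeing the data. Positions are from GENCODE 29 (GRCh38). Folds of single genes are ratios of mean FPKM.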

Additional observations from a re-analysis of the deposited data

How the results depend on the processing

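Across the 16 alternatives, each of the 9 tested genes kept its direction. OLR1, APOE and NPC2 stayed past the threshold in all of them and ABCA1 in all 15 that tested it, with log2 fold changes between 2.26 and 2.95 (OLR1), 0.37 and 0.54 (APOE), 0.46 and 0.67 (NPC2) and -1.24 and -0.74 (ABCA1, which the filter at a mean of 2 FPKM removed). Rescaling to TPM ended the calls of MYLIP (0.47), SCARB1 (-0.11) and VLDLR (-0.26), so that 1 of the 10 genes was called lower. It left 2199 genes called higher and 1213 lower over all tested genes, so that 64.4% of calls were higher, against 49.2% without it. TPM moved the median of all tested genes by 0.11, from -0.02 to 0.09. Relative to that median, the TPM values were 0.38 for MYLIP, -0.20 for SCARB1 and -0.35 for VLDLR, against 0.38, -0.21 and -0.35 before, with SEs of 0.158, 0.148 and 0.148 against 0.0599, 0.0526 and 0.0920. With the filter at 2 FPKM, 500 genes were called with an absolute log2 fold change of at least 1. Leaving out a library in turn gave VLDLR between -0.45 and -0.31, with its call lost without shCAVIN1 replicate 2 or 3 (subtracting length-class medians gave -0.25), and NPC1 between 0.18 and 0.39, with a call gained without shCtrl replicate 1.

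Same-numbered libraries correlated at 0.09, 0.07 and -0.03 in their deviations from the group means, so over all tested genes the numbers showed no clear pairing. Of the 9 tested genes, LRP1, VLDLR, NPC1 and, narrowly in shCAVIN1 cells, ABCA1 were highest in replicate 1 of both groups. Pairing in a subset of genes was not tested. With the replicate number as a block, NPC1 passed (log2 0.29, adjusted p = 0.0238) and no other call among the 9 genes changed. In all, 7167 genes were called, against 7734 without the block. The block lowered the SE of LRP1 (0.436 to 0.274), VLDLR (0.0920 to 0.0532), NPC1 (0.123 to 0.0668) and OLR1 (0.106 to 0.0799). It raised the SE of ABCA1, APOE, SCARB1, NPC2 and MYLIP.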

Other observations

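The ratio of MYLIP to ABCA1, both known LXR targets, was 6.73, 6.14 and 7.14 in shCAVIN1 replicates 1 to 3, against 1.81, 2.40 and 1.84 in shCtrl replicates 1 to 3. The ratio of the scavenger receptor OLR1 to the HDL receptor SCARB1 was 0.559, 0.574 and 0.558 in shCAVIN1 replicates 1 to 3, against 0.0527, 0.0747 and 0.0470 in shCtrl replicates 1 to 3. Neither ratio overlapped between the groups, but that follows from the single genes. MYLIP and OLR1 were higher, and ABCA1 and SCARB1 lower, in every shCAVIN1 library than in every shCtrl library. The ratios are thus no separate evidence, and both were chosen after the values were seen, so no test is given.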
